A study of Mus musculus with 3 samples.

Results

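The members described here are 1937 T cell receptor beta (TRB) clonotypes that had at least 1 read in each of the CD4, CD8 and DN libraries, out of 154480 TRB clonotypes in the 3 libraries together (1.25%). A clonotype is a nucleotide sequence of the CDR3, the junction of the receptor chain that runs from a conserved cysteine of the V gene to a conserved phenylalanine of the J gene, together with its V gene and its J gene. Members had to share all 3 of these exactly. Because they were chosen by the presence of reads in every library, their reads are given as a description and carry no test. A further 9613 clonotypes (6.22%) were found in 2 libraries, and 142930 (92.5%) in 1 library only, of which 39092 were in CD4, 71479 in CD8 and 32359 in DN.

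All libraries came from the spleen of 1 male MRL.lpr mouse, aged 16 weeks. T cells were sorted by flow cytometry into CD4 T cells, CD8 T cells and DN T cells, which carry the alpha-beta receptor but neither coreceptor, and 1000000 cells of each were used for 1 library of receptor mRNA. The 3 groups thus share the mouse, its lpr mutation and its age, no treatment is named in the labels, no animal without lpr is part of the comparison, and there are no replicates. The files held 44807 TRB clonotypes with 133667 reads for CD4, 81212 with 150874 reads for CD8 and 41948 with 194290 reads for DN T cells. The files hold receptor sequences and no other transcript, so the sort could not be checked against CD4 or CD8 levels. Differences are between libraries of this mouse and have no replicate check. The 95% intervals cover counting error only, since reads made by PCR and not tagged with molecular identifiers cannot be counted as separate molecules and clonotypes of 1 mouse are not replicates.

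A beta chain is made in the thymus when a V, a D and a J gene are cut and joined. Bases are trimmed from the ends and others are added without a template by the enzyme TdT, so most junctions are made rarely, while junctions with few added bases can arise in many cells independently. A clone that grows carries its junction into every daughter cell, whatever coreceptor the daughter keeps. The lpr mutation disables Fas, a receptor that triggers T cell death, and DN T cells gather in the lymphoid organs of such mice. A cell that carries the same junction in another subset, a junction made a second time, and cells or RNA of one sort present in another all give a clonotype in more than 1 library, and these sources cannot be told apart from presence alone.

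The members with the highest summed share over the 3 libraries show how a large clonotype could be spread over the subsets. Capitals mark the bases between the V and the J template, where bases of the D gene and added bases lie. The lower-case ends match the templates that the clonotypes of each V and J gene share. These templates were read from the clonotypes and not from the genes, so the borders of the capitals are approximate.
TRBV13-1 TRBJ1-3: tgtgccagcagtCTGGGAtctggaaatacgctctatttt
TRBV13-2 TRBJ2-5: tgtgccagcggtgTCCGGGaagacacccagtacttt
TRBV13-2 TRBJ2-1: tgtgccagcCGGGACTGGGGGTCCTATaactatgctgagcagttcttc
TRBV13-1 TRBJ2-4: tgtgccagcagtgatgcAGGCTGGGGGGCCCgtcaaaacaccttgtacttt
TRBV4 TRBJ2-3: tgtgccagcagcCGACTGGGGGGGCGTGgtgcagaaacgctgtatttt
The runs of G in the capitals are typical of the D genes, which are rich in G. The first of these had 54 reads in the CD4 library, 3260 in CD8 and 75 in DN, so nearly all of its reads were in the CD8 library. TRBV13-2 with TRBJ2-5 had 1484, 21 and 3 reads in the same order, and its share in CD4 was 719.0 times that in DN, the widest spread of any member. TRBV13-2 with TRBJ2-1 had 1275, 5 and 7 reads and was likewise almost confined to CD4. The other 2 were DN clonotypes, both with more reads in CD8 than in CD4. TRBV13-1 with TRBJ2-4 had 62, 225 and 1374 reads, or 0.0464%, 0.149% and 0.707% of TRB reads, and TRBV4 with TRBJ2-3 had 68, 212 and 1339 reads.

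Members were few among clonotypes and many among reads, above all in DN T cells. They made up 4.32% of the clonotypes and 15.3% of the TRB reads (95% Wilson interval 15.1 to 15.4%) in CD4, and 2.39% of the clonotypes and 15.2% of the reads (15.0 to 15.4%) in CD8. In DN they made up 4.62% of the clonotypes and 46.0% of the reads (45.8 to 46.2%). The median member had 2 reads in CD4 (range 1 to 1484), 4 in CD8 (1 to 3260) and 19 in DN (1 to 1374). On average a member had 46.2 reads in DN against 1.81 for a clonotype found in DN only, 11.9 against 1.52 in CD8 and 10.5 against 2.26 in CD4. The largest clonotypes confined to a single library were smaller than the largest members, at 158 reads for CD4, 104 for CD8 and 66 for DN.

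Many members were at the edge of the rule in at least 1 library. Of the 1937, 829 (42.8%) had 1 read in CD4, 452 (23.3%) in CD8 and 180 (9.29%) in DN, and 1088 (56.2%) had 1 read in at least 1 of them. With 1 read in every library there were 41, with at most 3 reads in every library 204, and with at least 10 reads in every library 62. Just outside the rule, 5835 clonotypes were in CD8 and DN but not in CD4, with medians of 1 and 3 reads, 1817 were in CD4 and DN but not CD8, and 1961 in CD4 and CD8 but not DN. At these depths a clonotype without a read may still make up 0.00224% of CD4, 0.00199% of CD8 or 0.00154% of DN reads (3 reads of the total), so presence in all 3 libraries depends on depth.

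Read number and presence in all 3 libraries went together in each subset. The percentage of members was highest in CD8 from 4 to 29 reads and in DN from 30 reads on. Of the 23687 DN clonotypes with 1 read, 0.760% were members, of those with 10 to 29 reads 26.6%, and of the 215 with at least 100 reads 95.3% (205 clonotypes, 95% interval 91.7 to 97.5%). Each of these 215 was found in CD8. In CD8, members rose from 0.807% at 1 read to 85.7% at 100 reads or more (30 of 35, 70.6 to 93.7%). CD4 T cells differed in the middle of the range, where 6.92% of clonotypes with 10 to 29 reads and 17.3% of those with 30 to 99 reads were members, against 42.7% and 59.2% in CD8. Even above 100 reads, 46 of 85 CD4 clonotypes were members (54.1%, 43.6 to 64.3%). Of the members with at least 100 reads in CD4, 45 were highest in CD4, whereas 11 of the 30 with at least 100 reads in CD8 were highest in DN. More reads make detection elsewhere more likely, and the intervals do not take this into account.

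**Figure D1:**
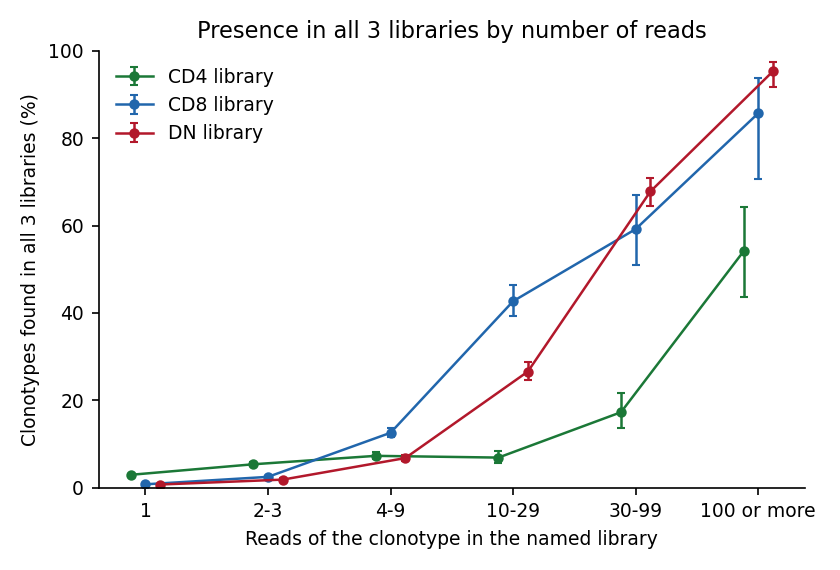
Percentage of the TRB clonotypes of each library that were found in all 3 libraries (y axis) against the reads of the clonotype in the named library (x axis, 6 classes); points are shifted sideways slightly and bars are 95% Wilson intervals. In the class of 100 or more reads the DN library reaches 95.3%, CD8 85.7% and CD4 54.1%, and between 10 and 99 reads the CD4 library lies far below the other two.

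The members divided by the library in which they took the largest share of reads. In 1501 of them (77.5%) the share was highest in DN, in 278 (14.4%) in CD4 and in 158 (8.16%) in CD8. The most frequent order was DN, then CD8, then CD4, seen in 1048 members (54.1%), followed by DN, CD4, CD8 in 453 (23.4%). Members highest in DN held 44.4% of all DN reads, and the same sequences held 8.81% of CD8 and 3.44% of CD4 reads. Those highest in CD4 held 11.6% of CD4 reads but 0.720% of CD8 and 1.26% of DN reads. Those highest in CD8 held 5.69% of CD8 reads, 0.245% of CD4 and 0.379% of DN reads. Thus the members' reads in the CD8 library came mostly from sequences that were larger still in DN.

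Few members were equally represented in the 3 subsets. The highest share divided by the lowest had a median of 10.8 (quartiles 4.82 and 20.2, range 1.11 to 719.0), and it was under 2 in 117 members (6.04%). Members with 1 or 2 reads can hold such ratios only roughly. Among the 62 with at least 10 reads in every library, the 5 widest ratios belonged to the TRBV13-1 TRBJ1-3 clonotype given above, led by CD8, and to 4 clonotypes led by DN. TRBV31 with TRBJ2-7 (in frame) had 11 CD4 reads, 59 CD8 reads and 520 DN reads, so its DN share was 32.5 times its CD4 share. TRBV13-3 with TRBJ2-3 had 15, 65 and 583 reads (26.7 times), and TRBV5 with TRBJ2-1 had 13, 49 and 465 (24.6 times). The remaining one, TRBV1 with TRBJ2-1, is shown further on among the short junctions.

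For the large members highest in DN, the level in CD8 followed the level in DN. Among the 199 with at least 100 DN reads, the share in CD8 had a median of 18.6% of that in DN, with quartiles of 14.3 and 21.6% and a range of 3.58 to 38.5%. The SD of this ratio on a log2 scale was 0.50, where counting of reads alone would give 0.34, and the reads in the 2 libraries had a Spearman correlation of 0.85 across these clonotypes, given as a description. In CD4 the shares of the same 199 were lower and more scattered, at a median of 4.37% of the share in DN, with quartiles of 2.91 and 6.27% and a range of 0.903 to 74.6%. The SD of this ratio was 0.97, against 0.75 from counting. With at least 30 DN reads, 712 members gave almost the same medians, 18.4% in CD8 and 5.19% in CD4. Over all 1501 members highest in DN the medians were 21.5% in CD8 and 9.69% in CD4, but the rule asks for 1 read in every library, which sets a floor to such values at few DN reads.

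The large members led by CD8 or CD4 had lower shares in the other libraries, relative to their own. Among the 30 highest in CD8 with at least 30 reads there, the share in CD4 was a median of 2.38% of that in CD8, and their share in CD8 was a median of 5086.7% of that in DN. For the 97 highest in CD4 with at least 30 reads, the share in CD4 was a median of 4869.4% of that in DN and 4007.0% of that in CD8. Members led by CD8 or CD4 were thus found in DN at a far lower level, relative to their own library, than members led by DN were found in CD8. The medians leave out clonotypes that were not members. At 30 to 99 reads, members were 59.2% of the clonotypes in CD8, 17.3% in CD4 and 67.8% in DN. Members led by different libraries are different sequences, and no test was applied between them.

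**Figure D2:**
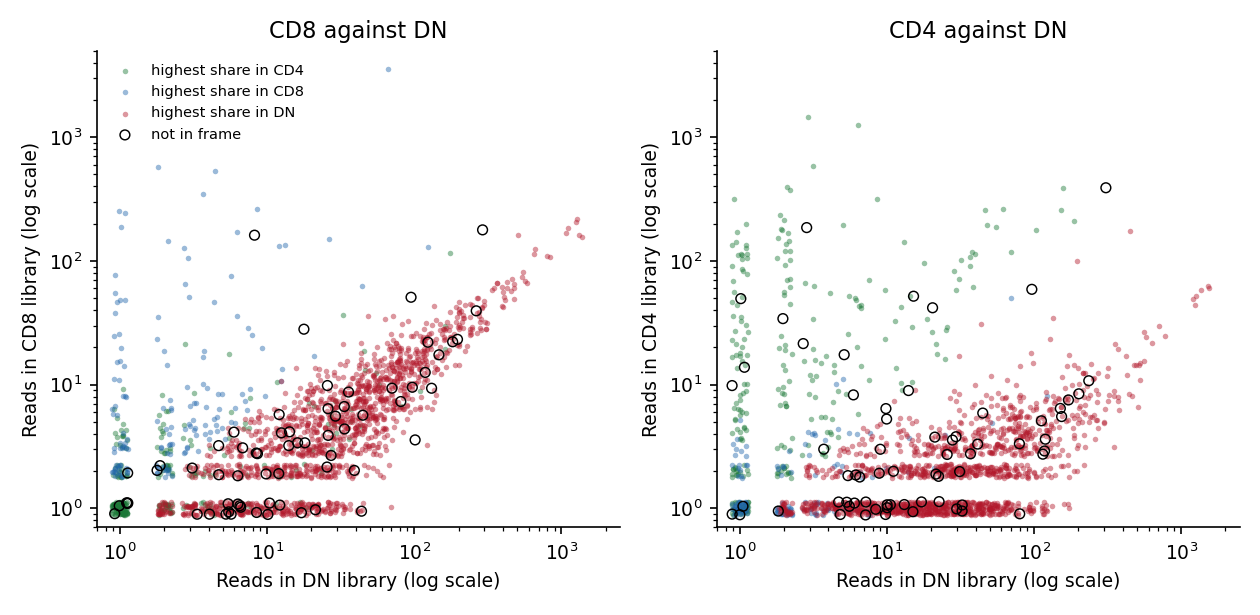
Reads of each member in the CD8 library (left, y axis) and the CD4 library (right, y axis) against its reads in the DN library (x axis), all on log scales, with a small sideways and vertical shift so that equal values can be seen. Colours give the library with the highest share, and open circles mark the 66 members that are not in frame. Members highest in DN form a band in the left panel, where the median CD8 share was 18.6% of the DN share for those with at least 100 DN reads. Members highest in CD4 had medians of 12 CD4, 1 CD8 and 2 DN reads, and those highest in CD8 of 1, 5 and 2.

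Most members that cannot code for a receptor were led by DN, as were most members of any kind. A junction out of frame, or one with a stop codon, gives no beta chain, and such junctions are carried as the second allele of a T cell whose other allele is productive. Not in frame were 66 members, 61 out of frame and 5 with a stop codon. They include the sequences listed with TRBV4 TRBJ2-1 and TRBV17 TRBJ2-7 that have no junction and are described further on. Of the 66, 47 had their highest share in DN, as did 1501 of all 1937 members (77.5%). The largest of the 66, apart from those given among the steadiest members further on, are shown because no receptor protein is made from them. This list was drawn up after their values were seen.
TRBV31 TRBJ1-4: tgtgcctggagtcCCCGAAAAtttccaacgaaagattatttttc
TRBV4 TRBJ1-2: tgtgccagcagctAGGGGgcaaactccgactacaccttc
TRBV31 TRBJ1-1: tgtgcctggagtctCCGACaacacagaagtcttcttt
TRBV19 TRBJ2-4: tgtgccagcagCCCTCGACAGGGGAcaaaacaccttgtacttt
TRBV31 TRBJ2-5: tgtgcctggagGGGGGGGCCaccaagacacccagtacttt
TRBV31 TRBJ2-7: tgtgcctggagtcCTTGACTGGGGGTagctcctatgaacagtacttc
TRBV31 TRBJ2-1: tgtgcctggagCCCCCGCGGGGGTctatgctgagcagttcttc
The first 5 were led by DN. TRBV31 with TRBJ1-4 had 12 CD4 reads, 36 CD8 reads and 261 DN reads, TRBV4 with TRBJ1-2 (a stop codon) had 8, 24 and 192, and TRBV31 with TRBJ1-1 had 8, 23 and 186. Their CD8 shares were 17.8%, 16.1% and 15.9% of their DN shares. TRBV19 with TRBJ2-4 had 7, 22 and 134 reads and TRBV31 with TRBJ2-5 had 5, 17 and 140, so the order DN, CD8, CD4 held here too. The last pair did not follow DN, as TRBV31 with TRBJ2-7 had 181, 2 and 3 reads and TRBV31 with TRBJ2-1 had 3, 167 and 9.

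Over the 8 members not in frame that were highest in DN with at least 100 DN reads, the share in CD8 was a median of 15.8% of that in DN (range 4.95 to 21.1%) and in CD4 5.62% (3.86 to 7.59%). The 191 in-frame members of this size had medians of 18.7% and 4.36%, and their quartiles, 14.3 and 21.6% in CD8 and 2.88 and 6.27% in CD4, took in the medians of the 8. No difference between the groups was tested.

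TRBV31, which joins by inversion because it lies on the far side of the D and J genes, supplied 24 of the 66 members not in frame (36.4%), against 17.4% of the 10326 such clonotypes found in 1 library only. The difference of 18.99 percentage points had a 95% Newcombe interval of 8.41 to 31.07. TRBV4 supplied 14 (21.2% against 9.45%, difference 11.76, 3.61 to 23.07). Of all members, in or out of frame, 8.72% used TRBV31 and 4.13% TRBV4. Between the templates, clonotypes not in frame had 10.6 bases in members and 12.6 in clonotypes of 1 library. The difference was -2.02 (95% interval -3.93 to -0.11). These members include the TRBV4 TRBJ2-1 and TRBV17 TRBJ2-7 sequences without a junction, described further on, which had 0 such bases. Neither this difference nor the share of TRBV4 was computed without them.

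In frame without a stop codon were 96.6% of the members (95.7 to 97.3%) and 92.8% of the clonotypes found in 1 library only, a difference of 3.82 percentage points (2.90 to 4.55). The share was lowest among DN-only clonotypes, at 89.6%, and was 91.5% in CD4 only and 94.9% in CD8 only. Read number moved with it, since DN-only clonotypes with 1 read were in frame in 87.7% and those with 10 to 29 reads in 94.0%. Against clonotypes of 1 library that had at least 10 reads the difference was 0.04 percentage points, with an interval of -1.14 to 1.24. Within classes of the same number of reads in the same library, the difference was largest at few CD4 or DN reads. At 1 read it was 7.32 (5.89 to 8.33) in CD4 and 8.96 (5.19 to 10.8) in DN. At 2 to 3 reads it was 3.41 (1.66 to 4.59) and 5.22 (2.16 to 6.56), while the CD8 intervals of these classes included 0. No class of 4 reads or more had an interval above 0, and in a pair of classes it lay below 0. Members were less often in frame at 4 to 9 CD8 reads (difference -1.40, -3.17 to -0.219) and at 30 to 99 CD4 reads (-6.18, -15.7 to -0.413). The latter class held 62 members, among them the TRBV17 TRBJ2-7 sequence without a junction (39 CD4 reads) described further on. Its difference was not computed without that sequence.

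The CDR3 of in-frame members was 42.5 ± 4.40 nucleotides long (SD, 1871 clonotypes, range 18 to 60), and 9.99 ± 4.09 of these lay between the templates. Clonotypes of 1 library averaged 41.9 and 10.4, so members were 0.55 nucleotides longer (0.35 to 0.75) and had 0.37 fewer bases between the templates (difference -0.37, -0.56 to -0.18). The sign of the second difference turned with the reads asked for: it was 0.48 (0.19 to 0.77) with at least 2 reads in each library, and 0.36 (0.10 to 0.63) against clonotypes of 1 library with at least 10 reads. The direction of the length difference depended on the subset compared. Members were longer than CD4-only clonotypes by 0.73 nucleotides (0.53 to 0.94) and longer than CD8-only clonotypes by 0.78 (0.58 to 0.99), but differed by -0.24 from DN-only clonotypes (-0.44 to -0.03). In bases between the templates they differed by -0.34 from CD4 only, by -0.05 from CD8 only (-0.24 to 0.14) and by -1.16 from DN only (-1.35 to -0.97). Both averages were highest among DN-only clonotypes, with 42.7 nucleotides and 11.2 bases.

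Junctions of the members differed more with the leading library than members as a whole differed from the rest. Members highest in CD8 had 7.40 ± 4.1 bases between the templates (SD) and a length of 40.2 ± 4.65 nucleotides, and 17.9% of them had 3 bases or fewer between the templates. Members highest in CD4 had 9.27 bases and 41.8 nucleotides, and those highest in DN had 10.4 bases and 42.9 nucleotides, with 4.13% at 3 bases or fewer. The same order was found among clonotypes confined to 1 library with at least 10 reads, with 8.19 bases in CD8, 9.66 in CD4 and 10.9 in DN. The short junctions of members highest in CD8 were hence also a property of large CD8 clonotypes that were not shared. Their part in the sharing was not tested.

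**Figure D3:**
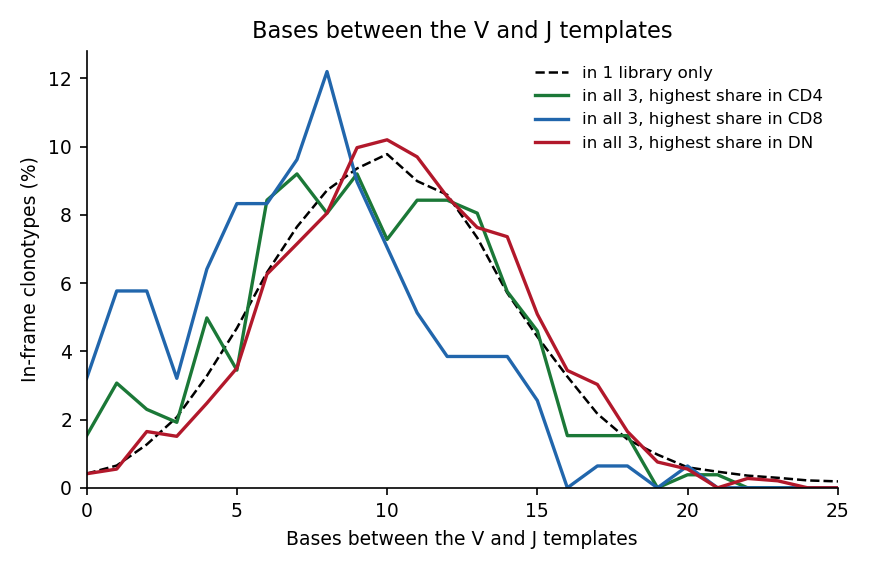
Percentage of in-frame clonotypes (y axis) by the number of bases between the V and J templates (x axis, bases), for members with the highest share in CD4, CD8 or DN and, as a dashed line, clonotypes found in 1 library only. Members highest in CD8 peak at fewer bases, with a mean of 7.40, while those highest in DN, with a mean of 10.4, lie close to the dashed line.

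Set against clonotypes with the same number of reads in the same library, members had fewer bases between the templates at few DN reads and more at several CD8 reads. At 1 DN read, members had 8.49 bases between the templates and clonotypes confined to DN 11.5, a difference of -3.05 (-3.68 to -2.41). At 2 to 3 DN reads the difference was -1.55 (-2.13 to -0.97), and at 10 to 29 reads -0.44 with an interval of -1.02 to 0.13. In CD8 the sign was the opposite one from 2 reads on. Members with 4 to 9 CD8 reads had 9.85 bases against 8.45 (difference 1.40, 1.02 to 1.78), and those with 10 to 29 CD8 reads had 9.84 against 8.16 (1.67, 0.99 to 2.35). In CD4 the difference was -0.75 at 1 read (-1.03 to -0.47) and 0.54 at 4 to 9 reads (0.08 to 1.01), and the intervals of the other classes included 0. The library that led the members changed with these classes. Members with 1 DN read were led by CD4 (124) or CD8 (56), and none by DN, since 1 read is a smaller share in DN than in either other library. Members with 10 to 29 CD8 reads were led by DN in 90.1%. Among the 204 members with at most 3 reads in every library, the mean was 9.07 bases, 98.0% were in frame and 7.0% had at most 3 bases between the templates.

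Several of the members with at least 10 reads in every library had junctions close to what the templates alone give, and they are shown with the longest for contrast.
TRBV13-1 TRBJ2-7: tgtgccagcagtgatgatgaacagtacttc
TRBV19 TRBJ2-5: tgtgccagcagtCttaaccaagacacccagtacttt
TRBV1 TRBJ2-1: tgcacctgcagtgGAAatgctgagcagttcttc
TRBV1 TRBJ2-7: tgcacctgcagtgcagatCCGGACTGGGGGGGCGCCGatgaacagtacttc
TRBV13-1 with TRBJ2-7, of 30 bases and without any base between the templates, had 20 CD4 reads, 135 CD8 reads and 647 DN reads, and its CD8 share was 26.9% of its DN share. TRBV19 with TRBJ2-5, with 1 such base, had 15, 31 and 192 reads. Both were led by DN, and their junctions can be spelled almost wholly by the V and J templates. TRBV1 with TRBJ2-1 had 15, 111 and 592 reads. TRBV1 with TRBJ2-7, of 51 bases with 19 between the templates, had 12, 14 and 56 reads, so a long junction occurred in all 3 subsets as well. Over all in-frame members, 15 (0.802%) had no base between the templates, among them 1 sequence without a junction that is described further on. The share was 3.21% in members highest in CD8 (5 of 156), 1.53% in those highest in CD4 (4 of 261) and 0.413% in those highest in DN. The sequence without a junction is among the 4 highest in CD4. In clonotypes of 1 library the share was 0.416%, and in clonotypes of 2 libraries 1.22%. With at least 10 reads it was 4.67% in CD8-only, 1.09% in CD4-only and 0.327% in DN-only clonotypes.

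Taken over all numbers of reads, members more often had a protein CDR3 that several nucleotide sequences spelled. With the same V and J gene, another in-frame nucleotide sequence for the same protein was present in the 3 libraries for 31.8% of in-frame members and 17.3% of clonotypes of 1 library. The share was 46.2% for members highest in CD8, 33.3% for those highest in CD4 and 30% for those highest in DN. Large clonotypes confined to 1 library came close to these values, with 40% in CD8, 25% in CD4 and 24.2% in DN at 10 reads or more. Copies of a sequence that differ by 1 base through an error in PCR or reading can add to these shares. Of the clonotypes confined to CD8 that were 1 mismatch from one with at least 10 times their reads, 39.8% stood beside a member, and in DN 31.5%. Members themselves were seldom such copies, with 10 in CD4, 11 in CD8 and 14 in DN.

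Among the members themselves, 62 shared their protein CDR3, V gene and J gene with another member, in 30 proteins, and at most 3 members spelled the same protein. That trio, with TRBV5 and TRBJ2-3, differed at a single base in the capitals.
TRBV5 TRBJ2-3 with 180 DN reads: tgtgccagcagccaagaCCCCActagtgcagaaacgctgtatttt
TRBV5 TRBJ2-3 with 119 DN reads: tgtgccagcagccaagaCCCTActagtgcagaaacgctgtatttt
TRBV5 TRBJ2-3 with 41 DN reads: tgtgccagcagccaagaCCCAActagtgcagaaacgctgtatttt
In the order CD4, CD8 and DN, they had 11, 22 and 180 reads, 3, 18 and 119 reads, and 1, 15 and 41 reads. All 3 were led by DN with CD8 in the middle. In these libraries 6 nucleotide sequences spelled this protein with these genes.

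The steadiest members over the 3 subsets included sequences with no junction at all. Of the 5 with the smallest ratio of highest to lowest share among the 62 with at least 10 reads everywhere, 3 consisted of the end of a J template with at most 6 bases that could be assigned to a V gene.
listed with TRBV4 and TRBJ2-1: tgctgagcagttcttc
listed with TRBV21 and TRBJ2-1: tatgctgagcagttcttc
listed with TRBV17 and TRBJ2-7: tgtgctcctatgaacagtacttc
listed with TRBV5 and TRBJ2-2: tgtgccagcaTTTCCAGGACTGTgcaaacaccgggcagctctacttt
listed with TRBV1 and TRBJ2-7: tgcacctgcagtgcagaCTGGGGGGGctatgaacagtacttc
The first had 357 CD4 reads, 164 CD8 reads and 323 DN reads, the TRBV21 sequence 218, 104 and 171, and the TRBV17 sequence 39, 26 and 20. In contrast to other large members, none of these was far larger in 1 library, and their highest shares were 2.46, 2.37 and 2.83 times their lowest. The 16 bases of the first end 85.7% of the 20073 in-frame TRBJ2-1 clonotypes. The TRBV21 sequence is listed as in frame although it holds no cysteine codon at its start. No such sequence was found in exactly 2 libraries, and 9 were found in 1. The other 2 of the steadiest members had complete junctions. TRBV5 with TRBJ2-2, out of frame, had 66, 52 and 88 reads (1.43 times), and TRBV1 with TRBJ2-7 had 32, 15 and 47 (2.43 times). The latter protein was spelled by 13 nucleotide sequences in these libraries.

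Among V genes, TRBV13-1 was the most frequent in members, with 368 of 1937 (19.0%) against 11.5% of clonotypes found in 1 library only, a difference of 7.52 percentage points (95% Newcombe interval 5.83 to 9.34). This V gene, formerly called Vβ8.3, made up 18.4% of DN-only clonotypes (difference 0.60, -1.13 to 2.46), 11.8% of CD4-only and 8.15% of CD8-only clonotypes. It made up 15.5% of members highest in CD4, 20.9% of those highest in CD8 and 19.5% of those highest in DN. Thus members led by CD8 used TRBV13-1 at 20.9% (33 of 158), more than the 8.15% of CD8-only clonotypes. Of those 71479 CD8-only clonotypes, 51370 had 1 read, and CD8-only clonotypes of like read number were not compared for this gene. Over all members, the difference from clonotypes of 1 library with at least 10 reads was 4.70 (2.31 to 7.09).

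Other V genes lay on either side. TRBV13-2 made up 14% of members (difference 2.81, 1.32 to 4.43), TRBV1 11.7% (1.98, 0.61 to 3.49) and TRBV17 7.43% (1.62, 0.52 to 2.88). Against DN-only clonotypes TRBV17 turned to -1.48 (-2.62 to -0.19), and the intervals of TRBV13-2 (1.43, -0.09 to 3.09) and TRBV1 (0.56, -0.84 to 2.11) included 0. The difference of TRBV13-2 was 1.08 (-1.0 to 3.49) with at least 2 reads in each library and 0.99 (-1.22 to 3.19) against clonotypes of 1 library with at least 10 reads. TRBV13-3, at 10.9%, lay between the 15.0% of CD8-only and the 4.83% of CD4-only clonotypes, and TRBV31, at 8.72%, differed by -1.37 (-2.56 to -0.02). TRBV5, at 7.49%, differed by 0.47 with an interval that included 0, and TRBV29, at 2.12%, by -0.48, also including 0. Less frequent in members were TRBV20 (2.07%, difference -2.50, -3.06 to -1.76), TRBV14 (1.91%, -2.47, -3.01 to -1.75), TRBV19 (6.04%, -2.22, -3.21 to -1.06), TRBV26 (1.45%, -1.39) and TRBV4 (4.13%, -1.22). TRBV20 differed most from CD4-only clonotypes, of which 10% used it, against 1.67% of DN-only clonotypes. Only TRBV19, of the V genes named here, had a lower share than each of CD4 only, CD8 only and DN only with intervals below 0, but against clonotypes of 1 library with at least 10 reads its difference was -0.29 (-1.86 to 1.26). TRBV14 made up 6.91% of CD8-only and 1.27% of CD4-only clonotypes.

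TRBJ2-1 had the largest difference of the J genes and was more frequent in members than in each subset. It was used by 370 members (19.1%) and by 13.8% of clonotypes of 1 library (difference 5.26, 3.56 to 7.08). The difference was 6.84 from CD4 only, 5.31 from CD8 only and 3.24 from DN only (1.5 to 5.09). TRBJ2-7 was the most frequent J gene, in 471 members (24.3%, difference 4.15, 2.28 to 6.12), but its difference from DN only was 1.37 with an interval of -0.54 to 3.39. TRBJ2-3 was used by 9.50% (1.15, -0.09 to 2.54). Lower in members were TRBJ2-5 (10.8%, difference -2.02), TRBJ1-1 (6.97%, -2.00), TRBJ1-2 (3.15%, -1.92), TRBJ2-4 (6.35%, -1.52) and TRBJ1-3 (3.61%, -1.31). TRBJ1-1 had intervals below 0 against each subset, but -0.77 (-2.47 to 0.91) against clonotypes of 1 library with at least 10 reads and -1.57 (-3.13 to 0.37) with at least 2 reads in each library. TRBJ1-4 (6.45%), TRBJ1-6 (4.08%) and TRBJ2-2 (3.98%) had intervals of the difference that included 0. The J genes of the first cluster together were used by 26% of members and 32.1% of clonotypes of 1 library.

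**Figure D4:**
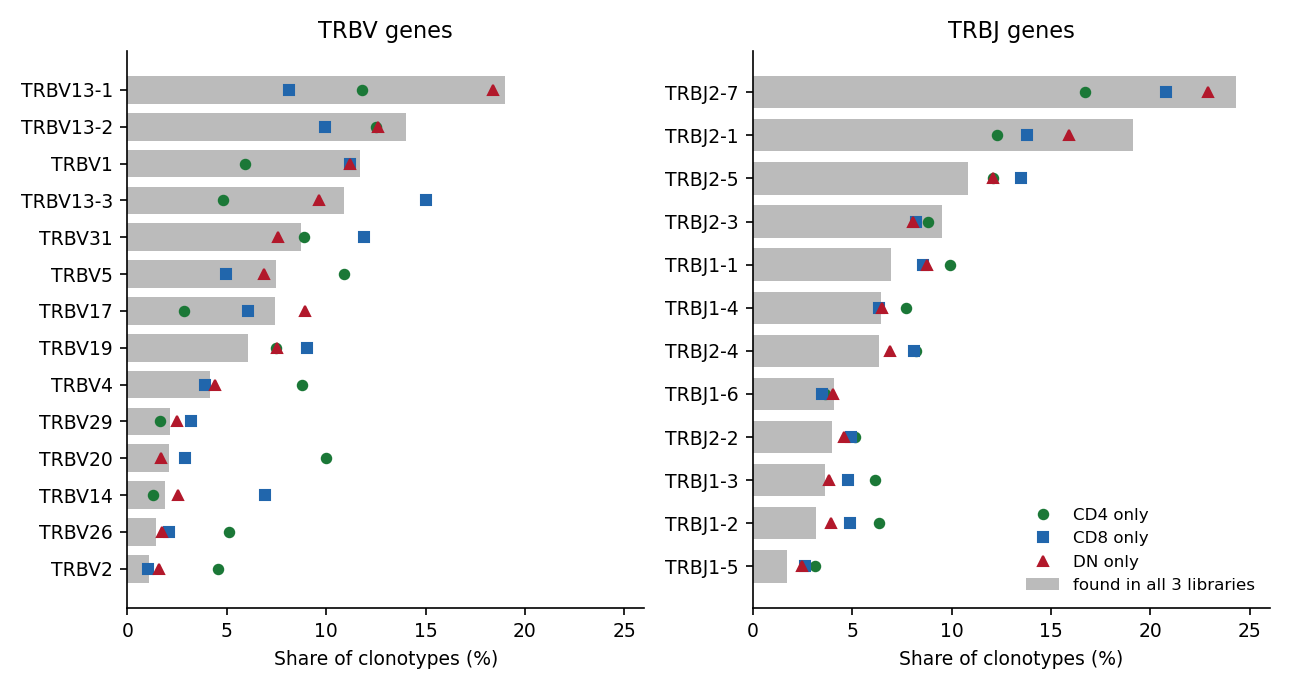
Percentage of clonotypes (x axis) that used each TRBV gene (left) and TRBJ gene (right); grey bars are the 1937 members and symbols are clonotypes found in the CD4, CD8 or DN library only. TRBV13-1 reaches 19.0% of members, beside 18.4% of DN-only clonotypes, and the bar of TRBJ2-1, at 19.1%, passes all 3 symbols.

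The D gene was listed as TRBD2 in 774 members (40%), as TRBD1 in 692 (35.7%) and not at all in 471 (24.3%). Against clonotypes of 1 library the differences were 6.87 for TRBD2 (4.70 to 9.08), -6.08 for TRBD1 (-8.20 to -3.90) and -0.79 for no D gene (-2.66 to 1.18). DN-only clonotypes had 40.3% TRBD2, close to the members. Members highest in DN had 42.4%, those highest in CD4 33.5% and those highest in CD8 28.5%. The D gene is read from a few bases and can be assigned wrongly. TRBD2 lies downstream of the first J cluster and cannot join it in the usual order, yet 31 of the 503 members with a TRBJ1 gene (6.16%) were listed with TRBD2, as were 5.67% of such clonotypes of 1 library.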

How the data were processed

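The libraries were made with a Takara SMARTer kit for mouse TCR alpha and beta mRNA, and the authors aligned the reads, assembled clonotypes and exported them with MiXCR, whose version and settings are not given in the sources used here. The deposited tables give each clonotype's count of reads, not normalized. The authors' tables also give its fraction of all reads of the file. Here, the counts of TRB clonotypes were divided by the TRB total of each library. The 84, 101 and 78 clonotypes of other chains in CD4, CD8 and DN were left out, and none was found in all 3 files.

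Clonotypes were joined on nucleotide CDR3, V gene and J gene. As no genome was given, V and J templates were read from the in-frame clonotypes, extended by the most frequent next base while at least 0.5 of the matching clonotypes, and at least 20, carried it. Templates can therefore take in frequent bases beside the gene, as in TRBJ2-7, whose template of 26 bases starts with 5 G. Shares have Wilson and differences of shares Newcombe intervals at 95%, and differences of means have intervals from both standard errors. The SD of log2 ratios from counting was taken from the reads in both libraries as Poisson counts. No p-value was computed. The code was tested on simulated data of 5000 unshared clonotypes per library, where 5 of 5 quantities were recovered. Shared clonotypes had many reads in every simulated library, so members with few reads were not simulated. The set difference in added bases was far larger than the difference between templates reported here. Differences in reading frame and in D gene use were not among the quantities.

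Clonotypes were named by a rule: the 5 members with the highest summed share, the largest in each library, the steadiest and least steady 5, and the shortest and longest 3 and the 3 with fewest bases between templates among those with at least 10 reads everywhere, the 3 largest out of frame, and the sequences of the protein most members spell. V and J genes with at least 2% of members, or among the 5 largest differences in either direction, were named, and all D genes. Of the clonotypes that the rule names, 1 is not reported here. The members and lists were chosen with earlier results of these data known, and the V genes of members not in frame were examined after their values were seen. Alternatives covered a minimum of 2 reads, the reading frame, identity by nucleotide or amino acid CDR3, merging of near-identical clonotypes, removal of large clonotypes and of large ratios, comparison with clonotypes of at least 10 reads and a template share of 0.6. Comparison with each subset and removal of members highest in DN were added after seeing the data. Python 3.11.15, NumPy 2.4.6, pandas 2.3.3, SciPy 1.17.1 and matplotlib 3.10.9 were used. The other experiments of the study were not analysed here.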

Additional observations from a re-analysis of the deposited data

Results flagged for a closer look

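The difference in CDR3 length between members and clonotypes of 1 library had opposite signs by subset. Members were longer by 0.73 nucleotides than CD4-only and by 0.78 than CD8-only clonotypes, and differed by -0.24 from DN-only clonotypes. Whether these differences differ from each other was not tested, and their cause was not tested either.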

How the results depend on the processing

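Of 388 alternative values, 298 kept the same call or moved little, 46 were weaker, 17 stronger, 20 reversed and 7 moved further. Among the 298 are values of opposite sign where neither interval excluded 0. TRBV5, for one, went from 0.47 to -1.44 against clonotypes of 1 library with at least 10 reads. The cause of these changes was not tested. With at least 2 reads in each library 849 members were left, the median log2 ratio of CD8 to DN shares was -2.22 (from -2.00), the in-frame difference 0.94 and the difference in bases between templates 0.48, reversed from -0.37. Against clonotypes of 1 library with at least 10 reads these differences were 0.04 and 0.36. Identity by nucleotide CDR3 alone gave a ratio of -1.84, a length difference of 0.19 and, for TRBV13-3, a difference of 2.45. Identity by amino acid CDR3 gave a ratio of -1.51, a length difference of -0.15 and a difference of 2.56 for clonotypes without D gene. Against DN only, the length difference was -0.24, TRBV13-1 0.60, TRBD2 -0.36, TRBV17 -1.48, TRBV20 0.39 and TRBV31 1.16. Against CD4 only, TRBV13-3 was 6.06, TRBV14 0.64 and TRBV5 -3.43. Against CD8 only, the bases between templates differed by -0.05, and TRBV4 by 0.22. Without members highest in DN, the length difference was -0.78, TRBD2 -1.44, TRBV17 -0.08, TRBV20 0.02, TRBV4 0.38 and TRBJ1-3 0.12. TRBJ2-1 had a positive difference with an interval above 0 in all 12 alternatives run for it (3.24 to 7.0). No paired analysis was possible because each subset had 1 library. With 1 read in at least 1 library for 1088 members, membership is limited by depth, and the libraries of 1 mouse give no spread between animals.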
